A study of Mus musculus with 6 samples.

Results

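Trp63, Tfap2a, Tfap2c, Grhl2, Grhl3, Ovol2, Sp6, Sfn and Perp were chosen by name as regulators and effectors of the epidermal lineage, and all 9 were found among the 10261 genes that carried a probe set with 1 gene symbol. They had 10 probe sets, 1 for each gene and a second for Sfn. They were read on 6 Affymetrix MoGene-1_0-st arrays, on which several short probes per transcript are summarised to 1 log2 signal per array. The tissue sources were primary keratinocytes of the back skin of newborn mice at postnatal day 0, grown in a keratinocyte medium, and mouse embryonic fibroblasts (MEFs) of E13.5 embryos, grown in serum-containing DMEM, both untreated. For the MEFs, C57BL/6J is named in the methods and DR-4 in the sample protocol, and no strain is named for the keratinocytes. In that protocol MEFs are the cells of several embryos, pooled after head and inner organs were discarded, and so no single cell type. There were 3 arrays labelled keratinocytes and 3 labelled MEF, numbered as biological replicates, and with so few arrays the precision of every value is limited.

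Transcripts that mark the cell types ran against these labels. Cdh1, which encodes the epithelial adhesion protein E-cadherin, had log2 signals of 3.33, 2.16 and 3.26 on the keratinocyte-labelled arrays, against 8.62, 8.59 and 8.73 on the MEF-labelled arrays (adjusted p = 4.03e-07 from limma). Vim, the gene of the mesenchymal filament protein vimentin, stood at 11.93, 11.97 and 12.03 on the keratinocyte-labelled arrays and at 3.81, 3.92 and 3.78 on the MEF-labelled arrays (adjusted p = 7.89e-10 from limma). For both genes the 3 arrays of one label lay apart from the 3 of the other (p = 0.1 in an exact permutation test, two-sided, which cannot go lower with 3 arrays against 3). Of a list of 7 keratinocyte markers 5 were measured, and all 5 were lower on the keratinocyte-labelled arrays, where Krt5 and Krt14 were not above background. All 8 fibroblast markers, Col1a1, Col1a2 and Pdgfrb among them, were higher there. The summed log2 signal of these 8 lay between 78.79 and 79.67 on the keratinocyte-labelled arrays and between 23.34 and 24.44 on the MEF-labelled arrays. Whether the labels were exchanged between the groups was not tested. Every direction below is therefore given for the arrays as labelled, not as a property of the named cell type. Differences are the mean of the keratinocyte-labelled arrays minus that of the MEF-labelled arrays, on the log2 scale.

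Background was read from 10 olfactory receptor probe sets, genes not expected in either cell type. Their 95th percentile was 5.49 to 5.92 on the keratinocyte-labelled arrays and 6.05 to 6.58 on the MEF-labelled arrays. On replicates 1 and 3 labelled MEF it exceeded the median of the probe sets with 1 symbol (6.53 against 6.31, and 6.58 against 6.39). Only 45.0% and 45.8% of these probe sets lay above it there, against 57.1% on replicate 2 labelled MEF. A signal under this level therefore does not show that a gene is not expressed. A gene at or under this level on every array of a group has only an upper limit there. A fold against such a group is only a bound, for which each dim signal was first lifted to the background of its array and the group means were then compared. Over the probe sets with 1 symbol, Pearson's r (across genes, so not over independent replicates) was 0.985 to 0.989 between arrays labelled keratinocytes, 0.991 to 0.994 between arrays labelled MEF and 0.629 to 0.647 across the labels. The median difference over all genes was -0.12.

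Trp63 encodes p63, a relative of the tumour suppressor p53 and the factor on which stratified epithelia depend. Mice without p63 form no epidermis, and in keratinocytes p63 is found at the genes of basal keratins, hemidesmosomes and desmosomes. The AP-2 factors encoded by Tfap2a and Tfap2c act in the surface ectoderm before and beside p63, the grainyhead factors encoded by Grhl2 and Grhl3 act on junction and barrier genes, and Ovol2 and Sp6 encode zinc finger factors of epithelial and ectodermal organs. Perp, a membrane protein of desmosomes, and Sfn, the 14-3-3 protein stratifin, are effectors, and both are also known as genes that respond to p53.

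All 9 genes were lower on the keratinocyte-labelled arrays, the arrays with low Cdh1, than on the MEF-labelled arrays, and each passed the test (limma, Benjamini-Hochberg adjusted over all 11288 probe sets). Over all genes 41.7% were called in this direction and 32.9% in the other. The 3 arrays of one label did not overlap the 3 of the other for any of the 9 genes, which held in this direction for 43.4% of all genes. A count of 9 in 9 thus stands against a background in which many genes differed. The median difference of the 9 genes was -3.19, against -0.12 over all genes. None of the 9 was above background on an array labelled keratinocytes. On the MEF-labelled arrays, Trp63, Tfap2a, Grhl2, Sfn and Perp were above it on all 3 arrays, Tfap2c on 1, and Grhl3, Ovol2 and Sp6 on 0. Of all genes 3.06% were called and lay above background on the 3 arrays labelled MEF and on none of the others, and 5 of the 9 did.

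**Figure D1:**
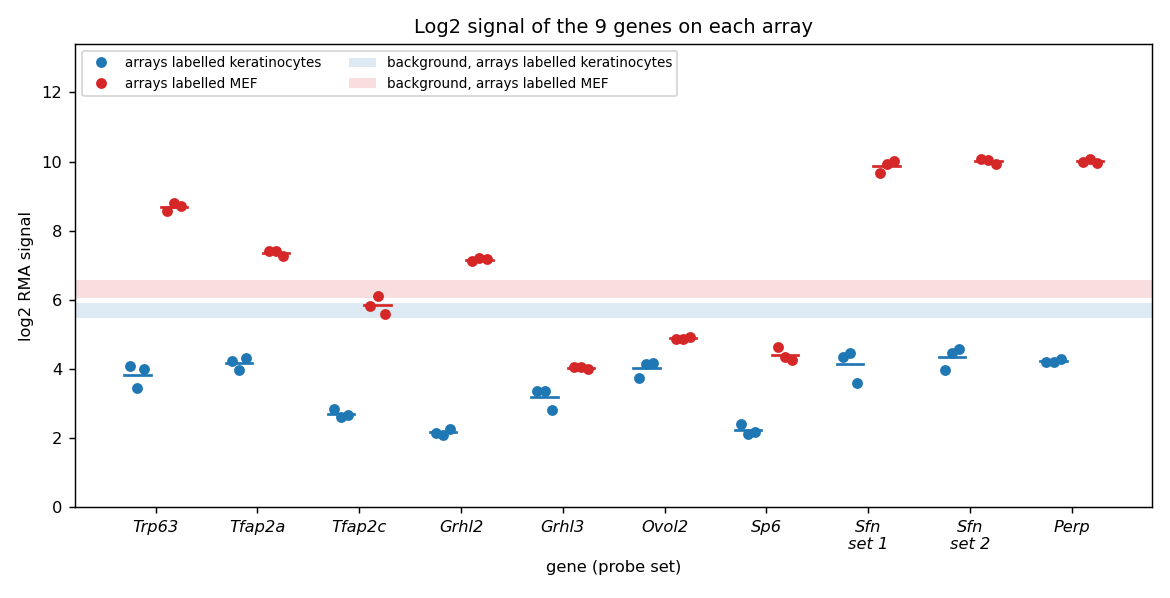
Log2 RMA signal (vertical axis) of the 10 probe sets of the 9 genes (horizontal axis), with each point an array, blue for the 3 arrays labelled keratinocytes and red for the 3 labelled MEF, a line for each group mean, and bands for the range of the olfactory receptor background in each group. All blue points lie under the blue band, and the red points of Trp63, Tfap2a, Grhl2, Sfn and Perp lie above the red band.

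Among the transcription factors, Trp63 had log2 signals of 4.08, 3.45 and 3.99 on the keratinocyte-labelled arrays, against 8.57, 8.79 and 8.71 on the MEF-labelled arrays. The groups lay 4.49 apart at their nearest arrays, and replicate 2 labelled keratinocytes was the lowest. The mean was 3.84 ± 0.34 on the keratinocyte-labelled arrays and 8.69 ± 0.11 on the MEF-labelled arrays (SD, n = 3 each). The difference was -4.85 with a standard error of 0.17 (adjusted p = 5.11e-08 from limma), and Trp63 was at least 7.94-fold lower on the keratinocyte-labelled arrays. A difference as low as this was found for 0.789% of all genes. The gene makes longer and shorter p63 forms from different promoters, and which of them this probe set reads was not tested.

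Tfap2a, which encodes AP-2 alpha, a factor of the surface ectoderm and of the neural crest, stood at 4.22, 3.97 and 4.31 on the keratinocyte-labelled arrays and at 7.40, 7.40 and 7.27 on the MEF-labelled arrays. The difference was -3.19 with a 95% confidence interval of -3.45 to -2.94 (adjusted p = 5.66e-08 from limma), or at least 3.15-fold lower on the keratinocyte-labelled arrays. Because melanocytes and other neural crest cells also use Tfap2a, their markers were looked up. Of 8 such markers only Foxd3 was measured, and it lay under background on all 6 arrays, with 3.61 to 4.49 on the keratinocyte-labelled arrays and 3.32 to 4.15 on the MEF-labelled arrays. The part of such cells in the Tfap2a signal was not tested beyond this 1 gene.
Tfap2c, the gene of AP-2 gamma, known in trophoblast and in early epidermal commitment, had signals of 2.83, 2.62 and 2.68 on the keratinocyte-labelled arrays and of 5.82, 6.10 and 5.59 on the MEF-labelled arrays. Only replicate 2 labelled MEF was above its background, which was the lowest background of the MEF-labelled arrays. The bound therefore came to at least 1.10-fold lower on the keratinocyte-labelled arrays, although the measured difference was -3.13 (95% confidence interval -3.45 to -2.81, adjusted p = 2.21e-07 from limma). Without that replicate Tfap2c was above background on no array and had no bound.

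Grhl2 encodes a grainyhead factor that acts on Cdh1 and on tight junction genes in epithelia. Its signals were 2.16, 2.10 and 2.27 on the keratinocyte-labelled arrays, against 7.12, 7.21 and 7.17 on the MEF-labelled arrays. The SD was 0.09 on the keratinocyte-labelled arrays and 0.05 on the MEF-labelled arrays. The difference was -4.99 with a 95% confidence interval of -5.20 to -4.79 (adjusted p = 2.58e-09 from limma), at least 2.77-fold lower on the keratinocyte-labelled arrays.
Its relative Grhl3, a factor of barrier formation and wound closure in the epidermis, had 3.37, 3.36 and 2.82 on the keratinocyte-labelled arrays and 4.05, 4.06 and 4.01 on the MEF-labelled arrays. All 6 values lay under background, so no fold is given, although the groups did not overlap and the difference of -0.86 passed the test (95% confidence interval -1.21 to -0.51, adjusted p = 0.00104 from limma). The difference of Grhl3 was -1.39 after quantile normalization (adjusted p = 8.89e-05 from limma).

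Ovol2, the gene of a zinc finger repressor that holds back mesenchymal genes such as Zeb1, stood at 3.75, 4.13 and 4.18 on the keratinocyte-labelled arrays and at 4.86, 4.86 and 4.93 on the MEF-labelled arrays. Sp6, which encodes the Sp factor epiprofin of tooth, hair and skin, stood at 2.41, 2.13 and 2.17 on the keratinocyte-labelled arrays and at 4.63, 4.36 and 4.25 on the MEF-labelled arrays. Both lay under background on all arrays and have no fold. Their differences were -0.86 for Ovol2 (adjusted p = 3.23e-04 from limma) and -2.18 for Sp6 (adjusted p = 1.32e-06 from limma), and the groups did not overlap. In a test against a minimum log2 difference of 1, which 8.98% of all genes passed in this direction, 7 of the 9 genes passed, and Grhl3 and Ovol2 did not.

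The effectors had higher bounds than the factors. Perp had log2 signals of 4.19, 4.20 and 4.30 on the keratinocyte-labelled arrays and of 9.98, 10.07 and 9.96 on the MEF-labelled arrays, with an SD of 0.06 in each group. It was at least 19.7-fold lower on the keratinocyte-labelled arrays, with a difference of -5.77 (95% confidence interval -5.97 to -5.57, adjusted p = 2.28e-09 from limma). Both Sfn probe sets carry the same transcript accessions in the annotation. The brighter gave 3.98, 4.47 and 4.57 on the keratinocyte-labelled arrays, against 10.08, 10.04 and 9.93 on the MEF-labelled arrays, with a difference of -5.67 (adjusted p = 1.48e-08 from limma) and a bound of at least 19.9-fold lower. The other gave 4.35, 4.45 and 3.60 on the keratinocyte-labelled arrays, against 9.68, 9.92 and 10.01 on the MEF-labelled arrays, with a difference of -5.74 (adjusted p = 8.76e-08 from limma). Both probe sets thus gave the same direction, and their 95% confidence intervals, -6.03 to -5.31 and -6.24 to -5.24, overlapped.

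**Figure D2:**
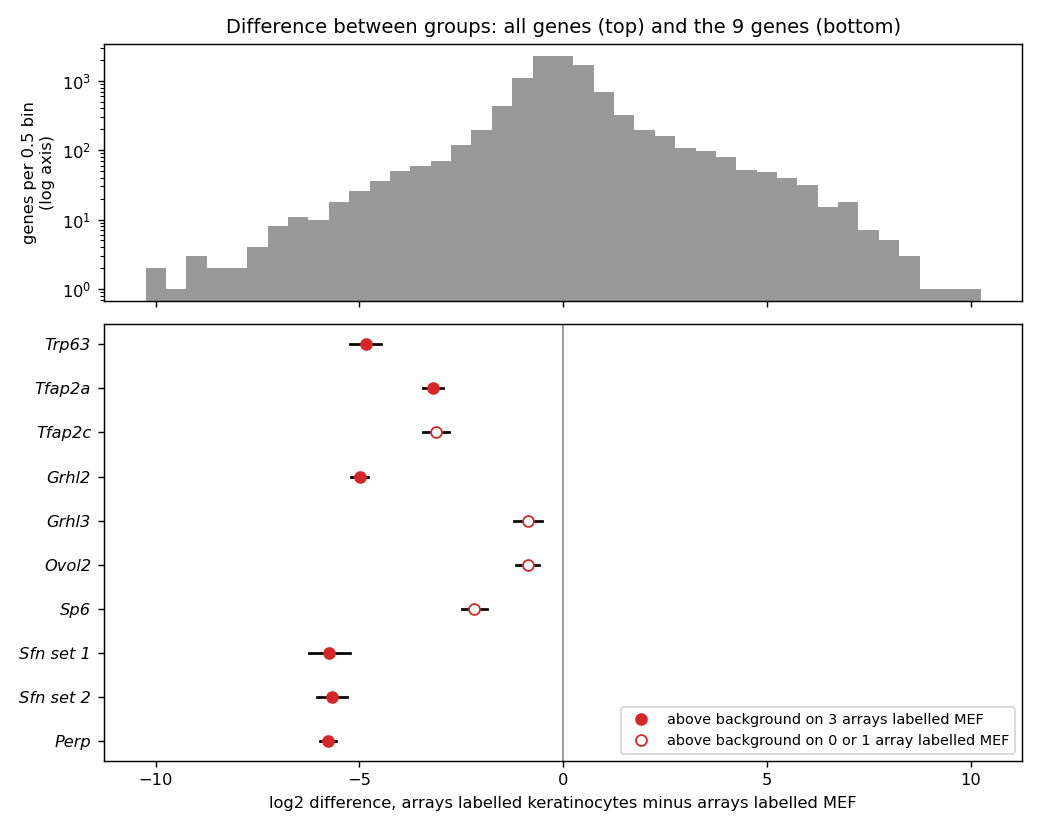
Difference between the groups on the log2 scale (horizontal axis of both panels, arrays labelled keratinocytes minus arrays labelled MEF). The top panel counts all genes in bins on a log axis, and the bottom panel gives each probe set of the 9 genes with its 95% confidence interval from limma, filled where all 3 arrays labelled MEF were above background. Perp, both Sfn probe sets, Grhl2 and Trp63 lie between -5.77 and -4.85, Grhl3 and Ovol2 at -0.86.

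Promoter sequence was read from RefSeq windows of GRCm38.p6, which were at hand for 4 of the 9 genes, as 5 windows of 300 bases that run from 250 bases before to 50 after a start site. Searched on both strands were the AP-2 motif GCCNNNGGC (in 16.6% of all 32851 windows), the grainyhead core AACCGG (6.83%), the E-box CACCTG that ZEB and SNAI factors bind (20.2%), the GC box GGGCGG of Sp factors (35.7%) and the p53 family motif (8.36%). Grhl3 and Sfn are shown because they held the E-box, and Ovol2 because it held none of the 5 motifs. Capitals mark matches, and no match overlapped another.
Grhl3 at chr4:135573583-135573882, minus strand: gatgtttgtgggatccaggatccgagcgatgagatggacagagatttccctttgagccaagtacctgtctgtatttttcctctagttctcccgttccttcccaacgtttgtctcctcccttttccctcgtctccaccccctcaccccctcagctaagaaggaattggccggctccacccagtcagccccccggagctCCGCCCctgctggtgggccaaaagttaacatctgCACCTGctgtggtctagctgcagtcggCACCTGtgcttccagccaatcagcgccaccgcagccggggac
Sfn at chr4:133602119-133602418, minus strand: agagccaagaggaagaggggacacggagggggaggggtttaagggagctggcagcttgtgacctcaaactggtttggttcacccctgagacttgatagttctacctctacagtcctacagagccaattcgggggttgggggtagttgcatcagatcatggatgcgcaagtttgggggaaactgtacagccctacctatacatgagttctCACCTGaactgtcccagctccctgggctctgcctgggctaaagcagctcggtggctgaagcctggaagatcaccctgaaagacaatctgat
Ovol2 at chr2:144331313-144331612, minus strand: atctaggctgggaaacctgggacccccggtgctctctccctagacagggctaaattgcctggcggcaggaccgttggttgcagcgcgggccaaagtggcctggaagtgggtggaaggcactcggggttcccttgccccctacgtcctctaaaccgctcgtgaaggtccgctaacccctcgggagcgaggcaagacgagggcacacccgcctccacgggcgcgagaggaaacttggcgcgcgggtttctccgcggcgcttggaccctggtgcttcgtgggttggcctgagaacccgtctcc
In Grhl3 the E-box lay at -19 and at 9 from the start site, and a GC box at -53 on the opposite strand. Sfn held the E-box at -41. Each of the 2 Tfap2a windows held 1 GC box. No window of the 9 genes held the AP-2, grainyhead or p53 family motif, which says only that these letters are not in these windows.

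Genes known to depend on p63 mostly differed in the direction of Trp63. Of 24 on the list 22 were measured, 20 were lower and 2 higher on the keratinocyte-labelled arrays, with a median difference of -4.50. Over all genes 41.7% were called lower and 32.9% higher there, and the counts of the lists below stand against the same shares. Krt5, Krt14 and Col17a1 of this list were also among the keratinocyte markers used to check the labels, so the lists are not independent. Dsc3, a desmosomal cadherin, stood at 1.06 ± 0.64 on the keratinocyte-labelled arrays and at 11.04 ± 0.03 on the MEF-labelled arrays (SD, n = 3 each), at least 40.5-fold lower. Krt5 was at least 108-fold and its partner in basal filaments, Krt14, at least 87.8-fold lower, and the Notch ligand Jag2, with 3.59 ± 0.06 on the keratinocyte-labelled arrays and 8.78 ± 0.11 on the MEF-labelled arrays, at least 8.45-fold lower. Some of the 20 changed far less: Fgfr2, a growth factor receptor, differed by -0.98 and the chromatin organiser gene Satb1 by -0.36 (adjusted p = 0.0187 from limma), and Satb1, under background on all arrays, lost its call with median centring, without MEF replicate 2 and without keratinocyte replicate 2 or 3 (adjusted p = 0.0888, 0.068, 0.0584 and 0.061 from limma). Dlx5, a homeobox gene of limb and craniofacial tissue, was higher on the keratinocyte-labelled arrays, with 4.82 ± 0.26 against 3.66 ± 0.10 on the MEF-labelled arrays, both under background (adjusted p = 9.57e-05 from limma). Dst, which encodes linkers of several tissues, skin and muscle forms included, was also higher, with a difference of 0.64 (adjusted p = 2.96e-04 from limma). Of the 22 genes, 6 were above background on no array.

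Of 10 genes known to depend on grainyhead factors, 9 were measured and all 9 were lower on the keratinocyte-labelled arrays, with a median difference of -5.28. Epcam, an epithelial adhesion molecule, had a difference of -6.74, Esrp1, an epithelial splicing factor, -6.61, and Rab25, an epithelial trafficking GTPase, -6.23 (adjusted p = 1.66e-08, 2.50e-09 and 2.87e-09 from limma). These 3 genes were above background on the 3 arrays labelled MEF. Marveld2, Prss8 and Tgm1 passed the test with all values under background.

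Relatives of the 9 genes went both ways. In the p53 family and its binding partners, 6 of 7 genes were measured, 3 were lower on the keratinocyte-labelled arrays and 3 did not pass. Trp73, which encodes p73, stood at 3.44 ± 0.57 on the keratinocyte-labelled arrays and 5.12 ± 0.06 on the MEF-labelled arrays (SD, n = 3 each), under background on all. Ppp1r13l, the gene of the p53 family inhibitor iASPP and itself known in stratified epithelia, had a difference of -1.39 (adjusted p = 1.53e-05 from limma) and was above background on all 6 arrays. Ppp1r13b, under background on all arrays, differed by -0.36 (adjusted p = 0.0176 from limma) and lost its call with median centring and without MEF replicate 3 (adjusted p = 0.0869 and 0.0655 from limma). Mdm2, which encodes the ubiquitin ligase of p53, stood at 7.83 ± 0.08 on the keratinocyte-labelled arrays and 8.00 ± 0.01 on the MEF-labelled arrays (adjusted p = 0.118 from limma). Trp53 was not analysed here. Of 4 measured genes for proteins that set p63 stability, the ubiquitin ligase gene Nedd4 and Stxbp4, whose product protects p63, were higher by 0.86 and 0.85 on the keratinocyte-labelled arrays, and the F-box gene Fbxw7 was lower by 0.65, under background throughout.

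Among 6 measured AP-2 relatives and cofactors, 3 were higher on the keratinocyte-labelled arrays and 0 lower. Cited2, a coactivator of AP-2, had a difference of 2.12 (adjusted p = 6.23e-07 from limma), Kctd15, a repressor of AP-2, 0.67, and Crebbp, an acetyltransferase, 0.55. The CP2 branch of the grainyhead family was split: Tfcp2l1 was lower, with 2.60 ± 0.42 on the keratinocyte-labelled arrays and 4.06 ± 0.20 on the MEF-labelled arrays (SD, n = 3 each), under background on all arrays, while Tfcp2 and Ubp1, each with a difference of 0.51, were higher. The broadly used Sp factors Sp3 and Sp1 had differences of -0.58 and -0.34, and Sp1 did not pass with median centring or quantile normalization (adjusted p = 0.0969 and 0.099 from limma), nor without MEF replicate 1 or 2 (adjusted p = 0.0543 and 0.0559 from limma).
The other 14-3-3 genes differed little. Ywhaz, Ywhae and Ywhab were lower on the keratinocyte-labelled arrays, with differences of -0.45, -0.43 and -0.42, Ywhag and Ywhah were higher, with 0.50 and 0.39, and Ywhaq did not pass. All 6 were above background on all arrays, where Sfn was so on the MEF-labelled arrays alone.
In the family of small membrane proteins to which Pmp22 belongs and Perp is related, 4 of 5 genes were higher on the keratinocyte-labelled arrays. Of these Emp1, with a difference of 0.25 (adjusted p = 0.0229 from limma), lost its call without any 1 of the MEF replicates (adjusted p = 0.0647, 0.0714 and 0.0523 without replicates 1, 2 and 3, from limma). Emp3 stood at 9.57 ± 0.03 on the keratinocyte-labelled arrays and 5.44 ± 0.16 on the MEF-labelled arrays (SD, n = 3 each), at least 9.05-fold higher, Tmem47 had a difference of 1.51 and Pmp22 of 0.53. Emp2 was lower, with a difference of -0.45 (adjusted p = 0.00149 from limma).

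Genes that respond to p53, as Perp and Sfn do, went both ways. Of 7 measured, 3 were higher on the keratinocyte-labelled arrays and 2 lower, with a median difference of -0.09. Sesn2 and Gadd45a, both stress response genes, were higher by 1.52 and 1.23, and Pmaip1, which encodes the cell death protein NOXA, stood at 5.73 ± 0.12 on the keratinocyte-labelled arrays and 7.48 ± 0.16 on the MEF-labelled arrays (SD, n = 3 each, adjusted p = 2.25e-06 from limma). Sesn1 was lower by 0.51. Of 16 measured other regulators of epidermis and hair follicle, 8 were lower on the keratinocyte-labelled arrays, 4 higher and 4 did not pass. Klf5, a factor of proliferating epithelia, had a difference of -2.91, and Vdr, the vitamin D receptor gene, of -2.85 and was at least 4.71-fold lower. Trps1, a GATA-type factor of hair and cartilage, went the other way, with 7.17 ± 0.09 on the keratinocyte-labelled arrays and 2.39 ± 0.10 on the MEF-labelled arrays (adjusted p = 3.74e-09 from limma). Msx2, Lhx2 and Cebpa were also higher on the keratinocyte-labelled arrays, by 1.25, 0.84 and 0.69, with all values under background.

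Of the 8 factors known to drive the mesenchymal state, some of them held back by Ovol2 or Grhl2 in epithelia, 7 were higher on the keratinocyte-labelled arrays, with a median of 4.09 for the list. Prrx1, a limb mesenchyme factor, differed by 7.10, Zeb1 by 5.63 and Zeb2 by 4.40 (adjusted p = 7.73e-08, 1.32e-07 and 6.25e-08 from limma). The exception was Snai2, which basal keratinocytes are known to express, with 8.37 ± 0.17 on the keratinocyte-labelled arrays and 8.86 ± 0.04 on the MEF-labelled arrays (SD, n = 3 each, adjusted p = 0.0034 from limma). It was above background on all 6 arrays.
Markers of some other cell types also differed. Krt8, Krt7 and Krt18 of simple epithelia and periderm were lower on the keratinocyte-labelled arrays, with Krt8 at 5.15 ± 0.60 against 9.64 ± 0.11 on the MEF-labelled arrays, while Krt19 was higher by 0.35. It lost its call without MEF replicate 1, 2 or 3 and without keratinocyte replicate 3 (adjusted p = 0.0842, 0.0555, 0.104 and 0.0948 from limma). The summed log2 signal of these 4 genes was 18.64 to 18.99 on the keratinocyte-labelled arrays and 29.12 to 29.31 on the MEF-labelled arrays. Cd68 of macrophages, with 4.64 ± 0.32 on the keratinocyte-labelled arrays and 8.56 ± 0.12 on the MEF-labelled arrays, and Kdr of endothelium, under background throughout, were lower on the keratinocyte-labelled arrays. Lyz2 and the muscle gene Des, each above background on 1 keratinocyte-labelled array alone, were higher there, as were the cartilage genes Col2a1, above background on the 3 keratinocyte-labelled arrays, and Acan and Col9a1, above it on 0 of the 6. The part of these cells in the signal of the 9 genes was not tested. In such bulk samples, fewer cells that express a gene and less RNA per cell cannot be told apart.

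**Figure D3:**
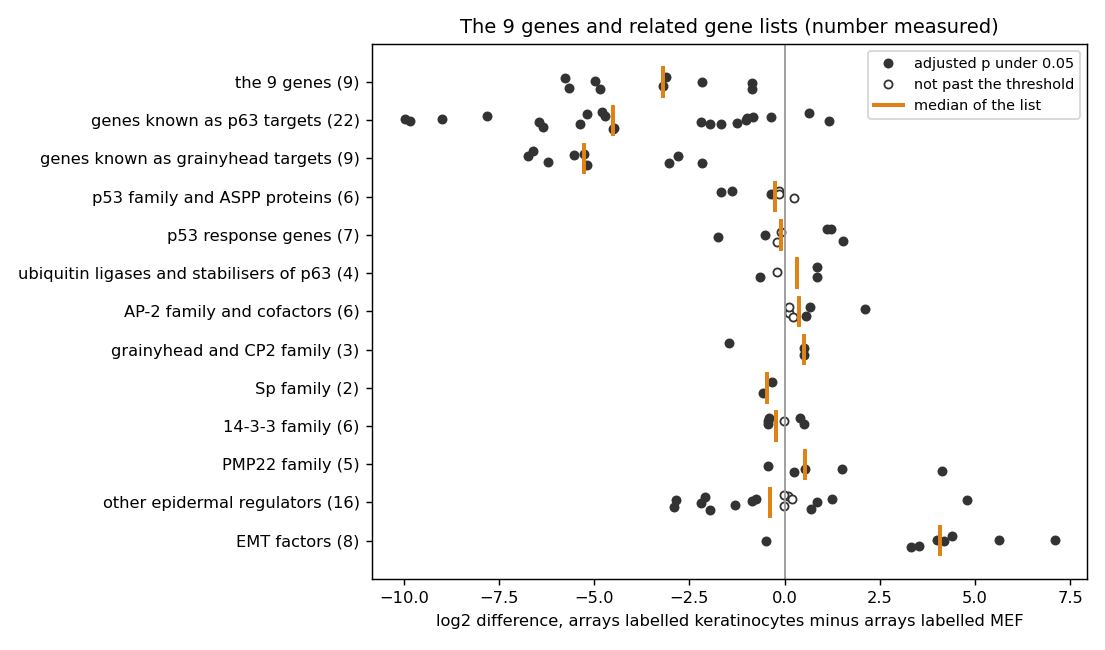
Difference on the log2 scale (horizontal axis, arrays labelled keratinocytes minus arrays labelled MEF) for the 9 genes and the genes of each related list (vertical axis, number measured in brackets), with a point for each gene, filled where the adjusted p was under 0.05, and an orange line at the median. The 9 genes and the lists of p63 and grainyhead targets have medians of -3.19, -4.50 and -5.28, and the EMT factors a median of 4.09.

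The genes nearest to each of the 6 genes above background in a group were found by the root mean square difference of their centred log2 signals over the 6 arrays, a measure that reflects chiefly the size of the difference between the labels. Nearest to Trp63 were Prrg4, Rdh12 and Bnc1, at 0.09, 0.14 and 0.14, with Bnc1 a zinc finger gene of basal keratinocytes. For Grhl2 they were Epha1, Lgals7 and Itga6 (0.09, 0.10 and 0.10), among them the integrin of hemidesmosomes and an epidermal galectin, and for Tfap2a they were Plcg2, Efna3 and Ablim1 (0.09, 0.09 and 0.10). Tfap2c had Ctla2b, Als2cl and Tfap2a as its nearest (0.11, 0.14 and 0.15). Perp was matched most closely by Abca12, the lipid transporter gene of the skin barrier, Mpzl2 and Cpa4 (0.10, 0.10 and 0.13), and Sfn by Cpa4, Perp and St14 (0.17, 0.17 and 0.19). Replicates varied more on the keratinocyte-labelled arrays for 7 of the 10 probe sets of the 9 genes, which was so for 60.5% of all genes. The SD of these probe sets was 0.06 to 0.47 on the keratinocyte-labelled arrays and 0.03 to 0.26 on the MEF-labelled arrays.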

How the data were processed

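RNA was profiled on 6 MoGene-1_0-st arrays of Affymetrix, with 3 per label. The authors deposited 1 table of log2 values with 15648 probe sets. RMA in oligo is named in the methods (version 1.46.0 by the submitters' processing notes). That the deposited log2 values are RMA output was inferred from their range. RMA equalises the distributions of the arrays it is run over and can flatten dim signals. Over the deposited probe sets the array medians ran from 6.156 to 6.308, so these distributions were not equal. Whether low genes differ more than their values show was not tested. The arrays RMA was run over and the choice of probe sets are not given in the sources used here. The values come with no genome build, so genes carry no coordinates. Probe sets were named from the platform annotation, and the 11288 with 1 symbol entered lmFit and eBayes of limma 3.58.1 (R 4.3.3), without a block, with Benjamini-Hochberg adjustment over all of them and a threshold of 0.05. Of these, 11274 were found by gene identifier in the RefSeq table of GRCm38.p6, and 645 probe sets with several symbols and 3715 with no entry were left out. For a gene with several, the brightest probe set was used, giving 10261 genes. Background on each array was taken from 10 probe sets of olfactory receptors, at their 95th percentile, and is rough because they are few. The code of the fit was run on simulated data in which a small share of probe sets was changed. Far more genes differed between the labels, so that run does not measure the error rate here. Plots were made in Python 3.11.15 with matplotlib 3.10.9.

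The 9 genes, the related gene lists, the tests and the alternatives were chosen with earlier results of these data known. Named are all 9 genes, Cdh1 and Vim, the 3 genes of each list with the largest differences among those past the threshold, those past it against most of their list, and the 3 nearest genes of each gene above background in a group. Some further genes of the lists are given as examples chosen after their values were seen. As alternatives, single arrays were left out, values were median centred or quantile normalized, and dim probe sets were filtered in 2 ways. The fit was run with a replicate block, trend and robust eBayes, all probe sets, and the mean over a gene's probe sets. Further alternatives were a minimum log2 difference of 1, a lower background, and a Student's t-test with and without adjustment. For the arrays the methods name limma, and the t-test stands under their statistical analysis. Nothing in the labels says that a replicate number pairs arrays across the groups. Whether replicates came from separate animals is stated only as biological replicates, so p-values measure the spread between these arrays. Each label is 1 group of arrays, and culture medium, age and handling cannot be told apart from cell type.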

Additional observations from a re-analysis of the deposited data

How the results depend on the processing

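Of 144 values of the 9 genes under 17 alternatives, 142 kept their direction and their side of the threshold. The other 2 were Grhl3 and Ovol2 against a minimum log2 difference of 1. Alternatives that changed only the test or the probe sets tested left the differences as they were. In these only the call could change, not the direction. With the dimmest 25% of probe sets left out, 4 of the 9 genes remained in the fit and 4 passed. With probe sets above background on fewer than 3 arrays left out, 5 remained and 5 passed. The counts fell because fewer genes were tested. Those 5 genes, the 4 among them, were above background on the MEF-labelled arrays alone. They thus met that filter only through the group where they were high. Their passes, which are counted among the 144 values, add no support of their own. A minimum log2 difference of 1 left 921 genes lower and 1082 higher on the keratinocyte-labelled arrays, against 4278 and 3371 without it, and 24 of the related genes higher, against 43. Some related genes without a call gained one under other alternatives, Mdm2, Ep300 and Runx1 among them. Cdh1 and Vim kept their direction and call in all 34 values. The replicate block cannot change the differences, such as the -4.85 of Trp63, because each number holds 1 array of each label. It left 9 of the 9 genes called and lost only the calls of Emp1 and Krt19 among the related genes (adjusted p = 0.0788 and 0.0576 from limma). Deviations of arrays with the same number correlated at -0.23, -0.21 and -0.03 over probe sets, so the numbers gave no sign of pairing. Across numbers, the value was 0.21 for keratinocyte replicate 2 with MEF replicate 1. It was also 0.21 for keratinocyte replicate 1 with MEF replicate 2. The remaining pairs lay between -0.03 and 0.06, and what lies behind these values was not tested. With single arrays left out, the difference ranged from -4.97 to -4.65 for Trp63 and from -0.95 to -0.68 for Grhl3, which stood at -1.39 after quantile normalization and at -0.73 after median centring. Median centring moved the median of all genes to 0.01, and the share of calls that were lower on the keratinocyte-labelled arrays to 47.8%, against 55.9% as deposited and 52.9% with quantile normalization. With the median of the olfactory receptor probe sets as background, the bounds became 19.5-fold for Trp63, 7.74-fold for Tfap2a, 2.70-fold for Tfap2c, 6.79-fold for Grhl2, 48.3-fold for Perp, 1.39-fold for Ovol2 and 1.01-fold for Sp6, and Sfn had none, being above that level on a keratinocyte-labelled array. A background with vomeronasal and taste receptors was not run, because they added no probe set with 1 symbol. The cause of these changes was not tested. Grhl3, Ovol2 and Sp6 lay under background on all arrays, which limits what their values can show.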
